A study of Sus scrofa with 6 samples.

Results

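MYRIP (ENSSSCG00000011269), LYST (ENSSSCG00000010151) and GPNMB (ENSSSCG00000032241) are genes of melanosome transport and of lysosome-related organelles that are also used outside melanocytes. They were chosen by name and identifier, and all 3 were found among the 14900 mRNAs of the deposited table. RNA-seq was run on skin of 3 unrelated female Bama pigs, a breed with black head and hindquarters and a white trunk. At an age of 2 years, each pig gave 1 piece of white skin (back) and 1 piece of black skin (buttock), cut 8 mm deep, so that there were 3 samples of each. Skin color and body site changed together in every pig, so their effects on the genes described here cannot be told apart. Replicate numbers denote the pigs, and white skin replicate 1 and black skin replicate 1 came from the same pig.

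A melanosome is a lysosome-related organelle, a compartment built from the same endosomal and lysosomal machinery that cells use for degradation, but made to store or release a product. In melanocytes the small GTPase RAB27A sits on mature melanosomes, binds an adaptor and through it a myosin motor, and is thereby held at the cell edge, from where pigment passes to keratinocytes. MYRIP is an adaptor of this kind, which joins RAB27 to myosin VIIa or Va on melanosomes of the retinal pigment epithelium and on secretory granules, among them the Weibel-Palade bodies of endothelial cells. LYST is a large BEACH domain protein whose loss gives the giant lysosomes and melanosomes and the pale coat of Chediak-Higashi syndrome. GPNMB is a transmembrane glycoprotein related to the melanosome matrix protein PMEL, present in melanosomes and in the lysosomes of macrophages, and a known target of MITF.

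Values are FPKM (fragments per kilobase of transcript, scaled to the mapped reads), which are per length and can be compared between genes. In each of the 6 samples GPNMB had the highest FPKM, LYST the next and MYRIP the lowest. Each mRNA was tested with limma on log2(FPKM + 0.5). The log2 fold changes below are white minus black on that scale, on which changes at low FPKM come out too small. A gene is called lower or higher in white skin where its log2 fold change was beyond 1 in size with a Benjamini-Hochberg adjusted p under 0.05, and SE is the standard error of the log2 fold change. Of the 14900 mRNAs, 930 (6.24%) passed both thresholds, 539 (3.62%) with lower and 391 (2.62%) with higher values in white skin. The median log2 fold change of all mRNAs was -0.31, and 69.1% were fitted as lower in white skin, so values of a gene are read against that shift. With upper-quartile scaling the median was -0.13 and lower genes made up 34.5% of the calls, and with quantile normalization these values were -0.03 and 31.0%, against 58.0% on the values as deposited.

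The libraries of one skin were not alike. White skin replicate 2 was the lowest white sample for all 9 hair follicle genes found (summed FPKM 1.18, against 188 and 144 in replicates 1 and 3), for all 7 keratinocyte genes and for all 15 macrophage genes, compared with 37.4% of the 12554 mRNAs with a mean FPKM of at least 1. Black skin replicate 1 was the highest black sample for all 9 hair follicle genes (summed FPKM 10186, against 493 and 350 in replicates 2 and 3), compared with 21.9% of those mRNAs. Results of the 3 genes are therefore also given without these libraries.

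MYRIP was down-regulated in white skin. Its FPKM was 0.219, 0.187 and 0.258 in white skin replicates 1 to 3 and 1.20, 1.76 and 2.64 in black skin replicates 1 to 3. All white samples lay close together and far below all black samples, the lowest black sample being 4.65-fold above the highest white one. White skin lay wholly below black skin in this way for 25.7% of all mRNAs. The mean was 0.221 ± 0.0357 (SD, n = 3) in white and 1.87 ± 0.724 in black skin, a fold of 8.43, and within the pigs black skin was 5.48-, 9.43- and 10.2-fold higher. MYRIP had a log2 fold change of -1.67 (SE 0.31, 95% confidence interval -2.37 to -0.97, limma adjusted p = 0.0260), and 2.51% of all mRNAs had a lower one. The gene lies on chromosome 13 from 24347574 to 24556743 (Sscrofa11.1).

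MYRIP was nevertheless a gene of low abundance. In white skin 4.33% of the mRNAs had a lower mean FPKM, and in black skin 23.0% had. The authors kept mRNAs above 0.5 FPKM in at least 1 sample, and MYRIP passed that threshold in its black samples alone, so its presence in the table already required a value above 0.5 in black skin. The same was true of 995 of the 14900 mRNAs (6.68%). Leaving out black skin replicate 1 kept the call (log2 fold change -1.89, limma adjusted p = 0.0301), whereas without white skin replicate 2 the value was -1.64 (adjusted p = 0.117). The call was also lost without white skin replicate 1 (adjusted p = 0.0752), white skin replicate 3 (0.0631), black skin replicate 2 (0.0711) or black skin replicate 3 (0.0661), with log2 fold changes between -1.71 and -1.44, all from limma.

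LYST had a lower mean in white skin, a difference that did not pass the adjusted threshold. Its FPKM was 1.21, 2.01 and 2.09 in white skin replicates 1 to 3 and 8.30, 2.49 and 4.70 in black skin replicates 1 to 3. No white sample reached a black one, but the margin was small, the lowest black sample being 1.19-fold above the highest white one. The pigs differed in size of the difference, black skin being 6.88-fold higher in pig 1, 1.24-fold in pig 2 and 2.25-fold in pig 3. With means of 1.77 ± 0.488 (SD, n = 3) in white and 5.16 ± 2.93 in black skin, LYST had a log2 fold change of -1.21 (SE 0.42, 95% confidence interval -2.17 to -0.24, limma adjusted p = 0.111). Its p before adjustment was below 0.05, as was that of 28.4% of all mRNAs.

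The size of the LYST difference moved with the black samples. Without black skin replicate 1 the log2 fold change was -0.82 (limma adjusted p = 0.198), without black skin replicate 2 it was -1.60 (adjusted p = 0.0813), and without white skin replicate 2 it was -1.29 (adjusted p = 0.249). Quantile normalization also gave -0.82 (limma adjusted p = 0.313). Adding the pig as a block left the standard error at 0.42 and the adjusted p at 0.108. LYST lies on chromosome 14 from 55433163 to 55634011 (Sscrofa11.1).

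GPNMB was the most abundant of the 3 genes. It also varied most between pigs, with a highest black sample 7.12-fold above the lowest, against 3.34-fold for LYST and less for MYRIP. Its FPKM was 29.3, 10.7 and 46.1 in white skin replicates 1 to 3 and 157, 31.8 and 226 in black skin replicates 1 to 3. The skins overlapped, since black skin of pig 2 lay below white skin of pig 3, yet in each pig the black sample was the higher, by 5.35-, 2.98- and 4.91-fold. In 41.6% of all mRNAs white skin was the lower in all 3 pigs. The mean was 28.7 ± 17.7 (SD, n = 3) in white and 138 ± 98.6 in black skin, and 97.6% of the mRNAs had a lower mean FPKM than GPNMB in black skin. The log2 fold change of -2.07 was lower than that of all but 0.987% of the mRNAs, with a standard error of 0.76 and a 95% confidence interval of -3.83 to -0.31 (limma adjusted p = 0.126).

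The samples of GPNMB were ordered by pig in the same way in both skins, with pig 2 lowest and pig 3 highest. With the pig as a block, the standard error of the same log2 fold change was 0.26, its 95% confidence interval -2.69 to -1.46 and its adjusted p 0.0145 from limma, so that GPNMB passed both thresholds. In that fit 1439 mRNAs (9.66%) passed, 957 of them (6.42%) lower in white skin. Without white skin replicate 2 the log2 fold change without the block was -1.49 (limma adjusted p = 0.343), and without black skin replicate 1 it was -1.78 (adjusted p = 0.244). GPNMB lies on chromosome 9 from 92037428 to 92071501 (Sscrofa11.1).

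**Figure D1:**
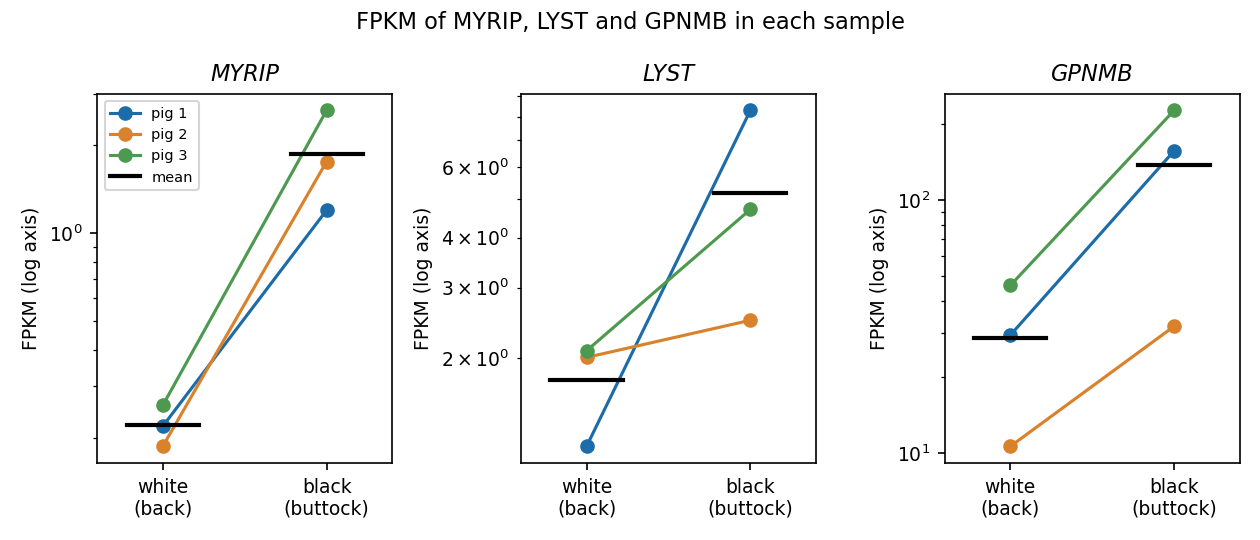
FPKM (log axis, a separate range in each panel) of MYRIP, LYST and GPNMB in white skin (back) and black skin (buttock), with 1 line per pig and a black bar at the mean of each skin (n = 3). All lines go up toward black skin, steeply in each pig for MYRIP, from 1.24- to 6.88-fold for LYST, and nearly in parallel from separate levels for GPNMB.

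An exact permutation test of the mean FPKM, two-sided, gave p = 0.1 for MYRIP and for LYST, the smallest value that 3 samples against 3 allow, and p = 0.2 for GPNMB. This test does not use the pairing of samples by pig, so the spread between pigs enters its p. Whether the 3 genes differed in the size of the difference between skins was examined by the log2 ratio of each pair. The ratio of MYRIP to LYST was lower in white than in black skin by 0.46 on the log2 scale (exact permutation test, p = 0.5). For MYRIP over GPNMB the difference was 0.40 (exact permutation test, p = 0.6) and for LYST over GPNMB 0.86 (p = 0.5), each p being 0.6 after adjustment over the 3 pairs. The differences per pig ranged from -1.47 to 1.12 for MYRIP over LYST, from -0.19 to 1.16 for MYRIP over GPNMB and from 0.03 to 1.28 for LYST over GPNMB, and an exact sign-flip test over the pigs gave p = 0.75, 0.5 and 0.25 for MYRIP over LYST, MYRIP over GPNMB and LYST over GPNMB, where 0.25 is the smallest that 3 pigs allow. No difference between the 3 genes was shown, and LYST over GPNMB had the same sign in all 3 pigs and in all 9 alternatives. The sizes moved with single libraries, as LYST over GPNMB was 0.20 without white skin replicate 2, 0.31 without black skin replicate 3 and 1.32 without black skin replicate 2. MYRIP over LYST was -1.06 without black skin replicate 1, -0.08 without black skin replicate 2 and -0.24 without black skin replicate 3, and -1.18 and -0.14 with pseudocounts of 0.1 and 1. For MYRIP over GPNMB the sign changed with a pseudocount of 0.1, to -0.46.

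**Figure D2:**
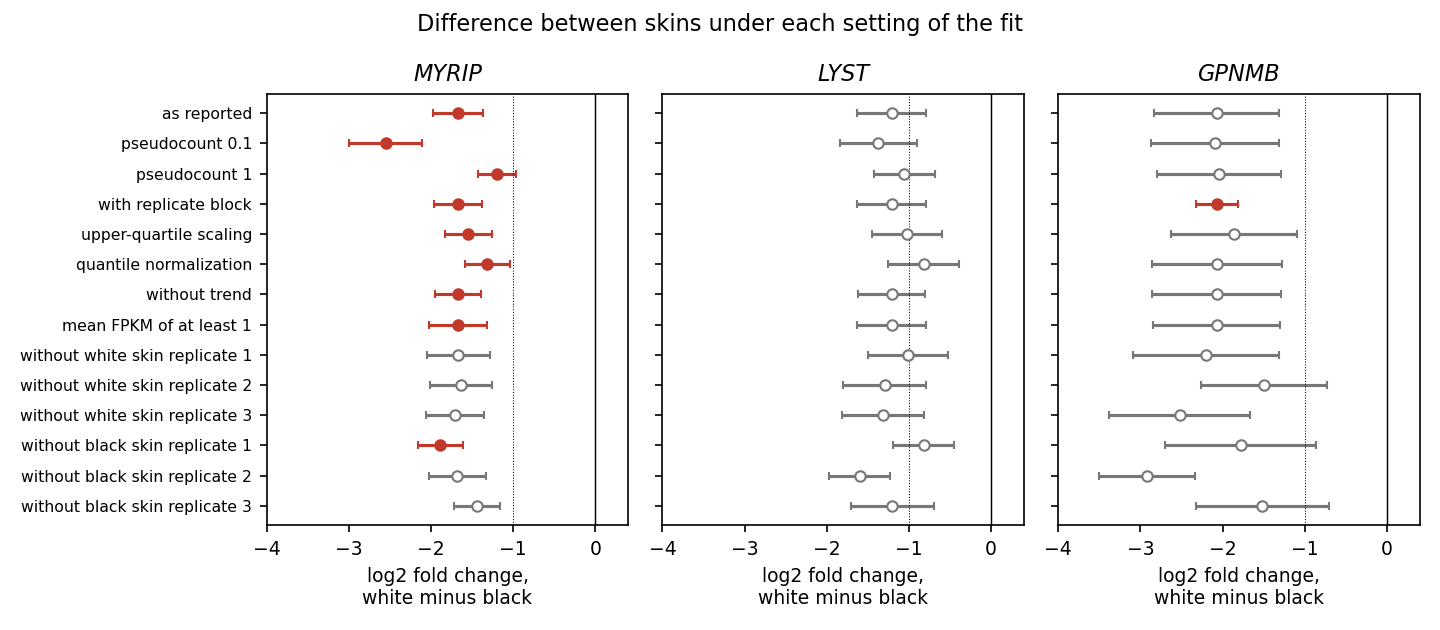
Log2 fold change (white minus black skin, horizontal axis) of MYRIP, LYST and GPNMB under each setting of the limma fit, with bars of 1 standard error. Filled red points passed both thresholds and the dotted line marks -1. MYRIP passed in 8 of 13 alternatives, LYST in none of 13, and GPNMB in 1 of 13, with the pig as a block, while all points lie below 0.

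Most of the transport genes listed beside MYRIP did not pass the thresholds. Of 13 genes listed for RAB27-dependent transport (RAB27 proteins, their effectors and motors), 12 were found, of which MYRIP was lower, RAB27B was higher and 10 did not pass. The 2 called were 16.7% of the 12, against 6.24% of all mRNAs. MYRIP, chosen with earlier results of these data known, is 1 of these 2, so the share is not read as a trait of the list. The median log2 fold change of the 12 was -0.38, near that of all mRNAs (-0.31), and -0.05 with quantile normalization. MYRIP, MYO7A and SYTL5 passed the 0.5 FPKM threshold in black samples alone, which is 25% of the 12, against 6.68% of all mRNAs.

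RAB27A, the GTPase that MYRIP binds, had an FPKM of 2.60, 1.78 and 4.25 in white and 3.49, 4.22 and 4.68 in black skin replicates 1 to 3. These values overlapped, and the log2 fold change was -0.51 (SE 0.33, limma adjusted p = 0.330). RAB27B, a close paralog that serves secretory granules in many cell types, went the other way. It had 9.92, 14.3 and 10.8 in white and 4.93, 3.06 and 3.75 in black skin replicates 1 to 3, with no overlap and with white skin 2.98-fold higher on average (log2 fold change 1.47, SE 0.27, limma adjusted p = 0.0264). The call of RAB27B held without black skin replicate 1 and was lost without any other library, at adjusted p values up to 0.126 from limma. RAB27A and RAB27B are paralogs, and whether the counting divided reads between them was not tested.

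Of the myosin motors, MYO5A, which carries melanosomes along actin, had 34.6 ± 1.87 FPKM (SD, n = 3) in white and 30.5 ± 3.46 in black skin, with each white sample above every black one, as in 9.62% of all mRNAs (log2 fold change 0.19, limma adjusted p = 0.548). The margin was almost nil, at 32.83 FPKM in white skin replicate 2 against 32.81 in black skin replicate 1. MYO7A, the motor partnered by MYRIP in the retinal pigment epithelium, was at 0.0435, 0.0756 and 0.0812 FPKM in white and 0.201, 0.331 and 0.854 in black skin replicates 1 to 3. White lay below black in all samples, as in 25.7% of all mRNAs, at levels where the scale compresses the change (log2 fold change -0.71, SE 0.31, limma adjusted p = 0.182). MYO7A passed the 0.5 FPKM threshold in black skin replicate 3 alone, so its presence in the table already required a high value in black skin. MLPH, the melanocyte adaptor between RAB27A and MYO5A, had 5.47 ± 1.36 FPKM (SD, n = 3) in white and 5.46 ± 3.86 in black samples (log2 fold change 0.16, limma adjusted p = 0.823). The highest and the lowest value of MLPH were both in black skin, 9.90 in replicate 2 and 2.89 in replicate 1.

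EXPH5, an effector of RAB27 proteins chosen here after its values were seen, had a log2 fold change close to that of MYRIP but an uneven spread. Its FPKM was 0.227, 0.0927 and 3.98 in white and 3.27, 2.67 and 4.45 in black skin replicates 1 to 3, so white skin replicate 3 lay among the black samples (log2 fold change -1.65, SE 0.71, limma adjusted p = 0.173).

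Of 24 genes listed for the building of lysosome-related organelles (HPS proteins, the BLOC complexes, the AP-3 adaptor and their partners), 19 were found. By both thresholds 1 was lower in white skin and none was higher, so that 5.26% were called, near the 6.24% of all mRNAs. Their median log2 fold change was -0.16, and 0.16 with quantile normalization, so the sign of the median depended on the scaling. The gene called was AP3M1, the mu subunit of AP-3, which sorts cargo to lysosomes and melanosomes. AP3M1 had 1.60, 1.11 and 2.59 FPKM in white and 15.5, 12.8 and 12.5 in black skin replicates 1 to 3. White and black samples were far apart and little spread (log2 fold change -2.68, SE 0.30, limma adjusted p = 0.0107), and the call held whichever library was left out, at adjusted p values of 0.0159 to 0.0462.

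The other AP-3 subunits found were not called, with log2 fold changes of -0.25 for AP3B1, -0.47 for AP3D1 and 0.58 for AP3S2, all named after their values were seen. Of the most abundant genes of the list, BLOC1S1, a subunit shared by the BLOC-1 and BORC complexes, had 210 ± 53.4 FPKM (SD, n = 3) in white and 104 ± 15.7 in black samples (log2 fold change 0.99, limma adjusted p = 0.0554), and the white samples were all above the black ones. BLOC1S2, a further subunit of the same complexes, had a log2 fold change of 0.50 and HPS1, of the BLOC-3 complex, one of -0.23, neither called. LYST, which is part of this list too, stood second to AP3M1 in its lower values in white skin.

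LYST is one of 8 BEACH domain proteins, large scaffolds of membrane traffic, of which 7 were found. None was called with limma, with the pig as a block or without, and p before adjustment was below 0.05 for 3 of the 7, against 28.4% of all mRNAs. In each of the 3 pigs all 7 had less in white skin, as did 41.6% of all mRNAs, with a median log2 fold change of -0.66, and of -0.29 with quantile normalization, by which 6 of the 7 were lower. WDFY3, an autophagy scaffold, had a difference of the size of LYST, with 4.05, 3.71 and 3.72 FPKM in white and 7.10, 7.81 and 14.8 in black skin replicates 1 to 3 (log2 fold change -1.19, SE 0.31, limma adjusted p = 0.0606). Its white samples were nearly equal and its highest black sample was replicate 3, where LYST had replicate 1. NBEAL2, needed for platelet alpha granules, had a log2 fold change of -0.82 and NBEAL1 one of -0.16.

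**Figure D3:**
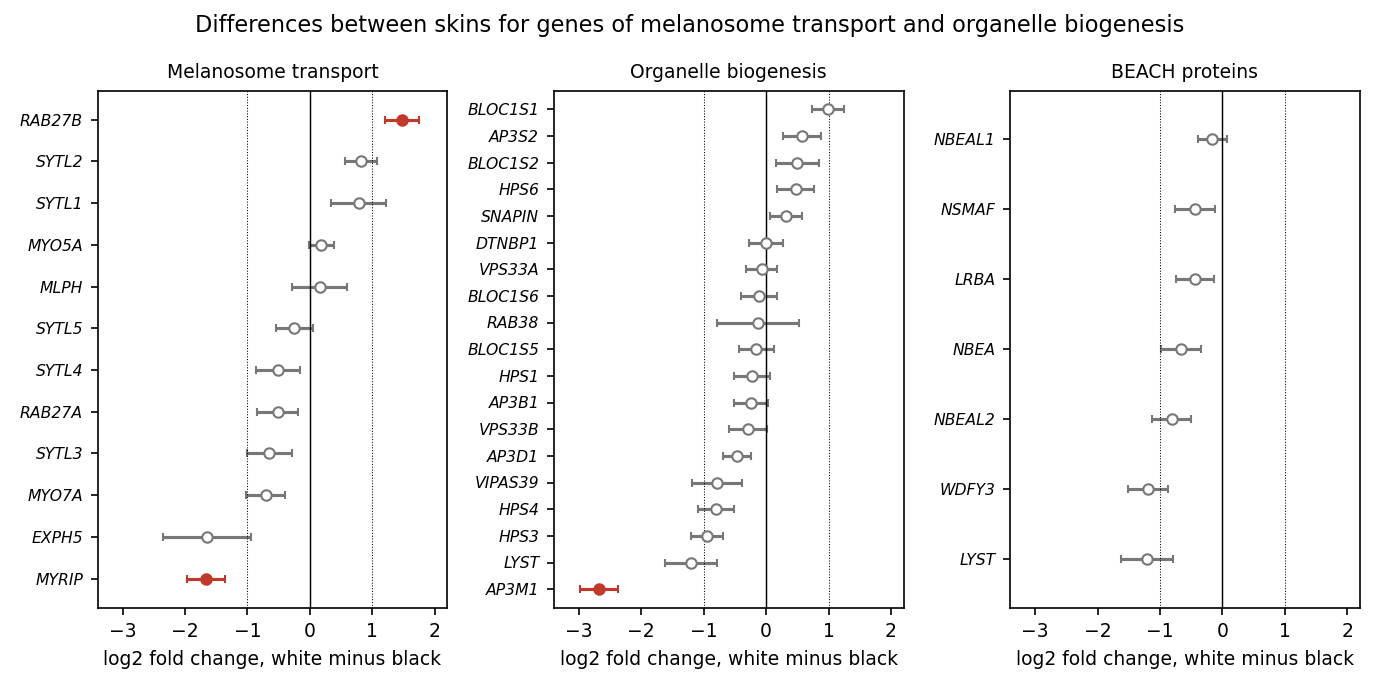
Log2 fold change (white minus black skin) of the genes of melanosome transport, organelle biogenesis and BEACH proteins that were found, with bars of 1 standard error and dotted lines at -1 and 1. Filled red points passed both thresholds, which were MYRIP and RAB27B in the first panel, in opposite directions, and AP3M1 in the second, with none in the third.

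GPNMB was set beside 43 lysosome genes (hydrolases, membrane proteins, proton pump subunits), of which 40 were found, all above 0.5 FPKM in both skins. In white skin 2 were lower, 1 was higher and 37 did not pass, so that 7.5% were called, near the 6.24% of all mRNAs. Of the 40, 30 (75.0%) were fitted as lower, against 69.1% of all mRNAs. Their median log2 fold change was -0.48, and -0.37 with quantile normalization, against -0.31 and -0.03 for all mRNAs. Before adjustment p was below 0.05 for 17 of the 40, against 28.4% of all mRNAs. White skin lay wholly below black skin for 15 of them and wholly above for 2, against 25.7% and 9.62% of all mRNAs. Black skin replicate 3, in which GPNMB was highest, was the highest black sample for 31 of the 40, compared with 43.9% of the mRNAs of at least 1 FPKM. NPC1, which exports cholesterol from lysosomes, had 3.91 ± 0.300 FPKM (SD, n = 3) in white and 11.6 ± 4.68 in black samples (log2 fold change -1.39, limma adjusted p = 0.0435). LAPTM5, a lysosomal membrane protein of blood cells, had 28.0 ± 7.47 and 68.8 ± 11.2 (log2 fold change -1.30, adjusted p = 0.0313). Neither skin overlapped the other for these genes.

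SMPD1, the acid sphingomyelinase of lysosomes, was the gene that was higher in white skin. It had 85.0, 67.8 and 18.8 FPKM in white and 8.44, 11.1 and 7.77 in black skin replicates 1 to 3, with white skin replicate 3 apart from the other white samples but above all black ones (log2 fold change 2.34, SE 0.52, limma adjusted p = 0.0401). When single libraries were left out, the NPC1 call was lost in all 6 fits, that of SMPD1 in 5 and that of LAPTM5 in 4, at adjusted p values up to 0.156 from limma. The cysteine protease CTSS, of antigen-presenting cells and chosen after its values were seen, was called with the pig as a block (log2 fold change -2.15, adjusted p = 0.0343) and not without it (0.0869, both from limma).

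**Figure D4:**
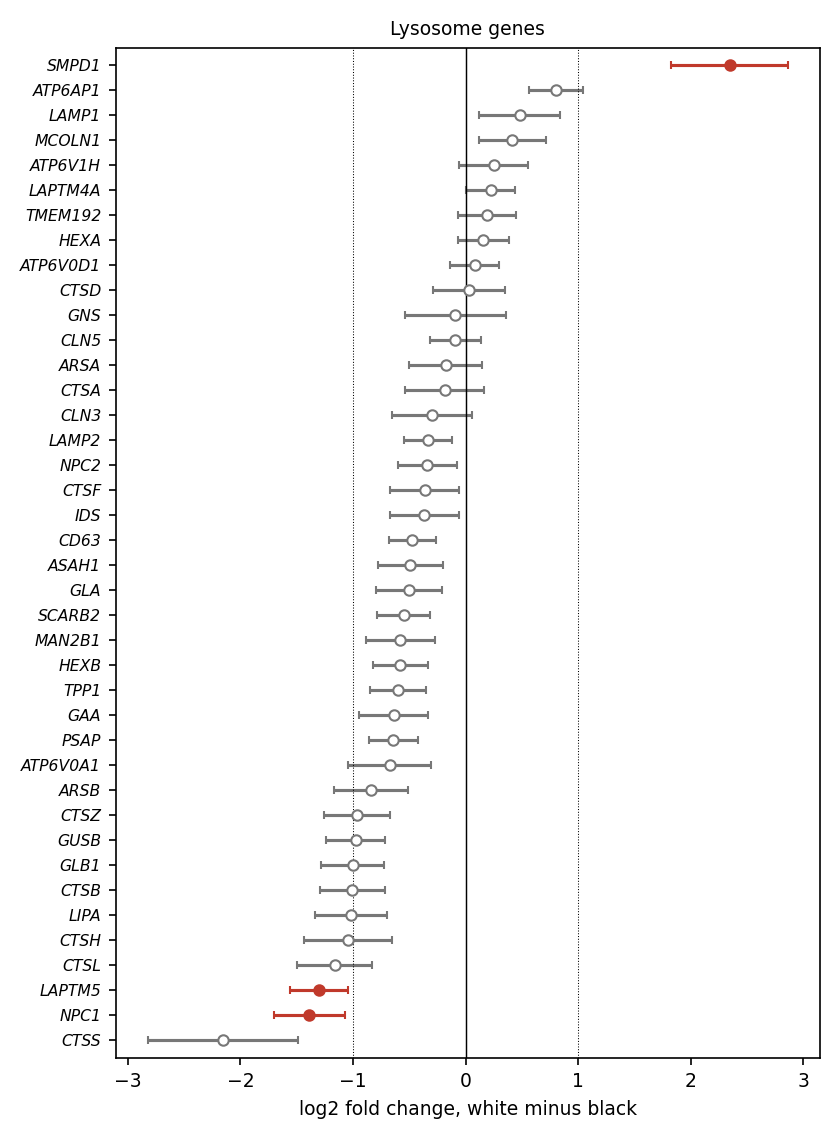
Log2 fold change (white minus black skin, horizontal axis) of the 40 lysosome genes found, ordered by value, with bars of 1 standard error and dotted lines at -1 and 1. Filled red points passed both thresholds, SMPD1 on the right and LAPTM5 and NPC1 on the left, and 30 of the 40 points lie below 0.

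Expression of lysosome and melanosome genes is governed by the MiT/TFE transcription factors, of which MITF is the regulator of the melanocyte lineage and is also used by macrophages and osteoclasts, while TFEB and TFE3 drive lysosome genes in most cells. MITF had 5.06, 4.82 and 6.67 FPKM in white and 16.2, 8.27 and 15.7 in black skin replicates 1 to 3. The samples did not overlap, and the log2 fold change of MITF was -1.16 (SE 0.31, limma adjusted p = 0.0640, and 0.0440 with the pig as a block). None of the 4 factors was called without the block. Before adjustment p was below 0.05 for 2 of them, against 28.4% of all mRNAs. TFEB had a log2 fold change of -0.51 (limma adjusted p = 0.332) and TFE3 of -0.50 (0.180). TFEC, a member of the family expressed in macrophages, had a listed FPKM of 0, 0 and 0.938 in white and 1.62, 0.404 and 2.04 in black skin replicates 1 to 3 (log2 fold change -1.25, adjusted p = 0.173).

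Whole skin holds many cell types, and in bulk samples fewer cells of a type and less RNA per cell cannot be told apart. The marker genes of several types that use MYRIP, LYST or GPNMB also differed between the skins. Of 12 melanocyte markers, 9 were found and 5 were lower in white skin (PMEL, TYRP1, MLANA, DCT and TRPM1), with summed FPKM of 2.11 to 4.86 in white and 33.8 to 175 in black skin. TYR was listed at 0 in all 3 white samples, and TYRP1 and MLANA in replicates 1 and 2. Of the 9 markers, 6 (66.7%, against 6.68% of all mRNAs) passed the 0.5 FPKM threshold in black samples alone.

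Of 16 macrophage markers, 15 were found, each of them lower on the white side of all 3 pigs and none listed at 0. CD68 and FCER1G passed the thresholds, and 9 of the 15 did with the pig as a block, with summed FPKM of 54.0 to 134 in white and 157 to 293 in black skin. Of 10 endothelial markers, 8 were found, and PECAM1, CDH5 and KDR were lower in white skin (5 of 8 with the block), with summed FPKM of 59.4 to 61.4 in white and 105 to 236 in black skin. All 6 adipocyte markers were found and 5 were lower (CIDEC, ADIPOQ, FABP4, PLIN1 and LEP), with sums of 145 to 509 in white and 792 to 1838 in black skin. The other, PPARG, named after its values were seen, was not lower. It had a mean of 18.9 FPKM in white and 17.7 in black skin (log2 fold change 0.34, limma adjusted p = 0.714). The calls were 55.6% of the melanocyte, 13.3% of the macrophage, 37.5% of the endothelial and 83.3% of the adipocyte markers found. Over all mRNAs 6.24% passed, and 9.66% with the block. Of the melanocyte markers called, PMEL, TYRP1, MLANA and TRPM1 are in the deposited values through their black samples alone. The melanocyte share is therefore not read against that of all mRNAs. Many of these marker calls depended on the setting. Both macrophage calls were lost with upper-quartile scaling and with quantile normalization, the endothelial calls numbered 2 and 1 in these fits and the adipocyte calls 2 and 4, while the melanocyte calls stayed at 5. When single libraries were left out, 1 to 5 melanocyte, 0 to 1 macrophage, 0 to 5 endothelial and 0 to 2 adipocyte markers were called, and FCER1G, ADIPOQ and PLIN1 were lost in all 6 fits. The part of these cell types in the differences of MYRIP, LYST and GPNMB was not tested.

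Of 9 fibroblast markers 8 were found. DCN and FBLN1, 25% of the 8, were lower in white skin (4 of 8 with the block, 0 to 1 without single libraries). The sums were 2282 to 4839 in white and 6009 to 10331 in black skin. None of the 7 keratinocyte, 9 hair follicle and 3 mast cell markers found (of 10, 10 and 5) passed the limma thresholds. Before adjustment p was below 0.05 for 0, 7 and 2 of them, against 28.4% of all mRNAs. With the pig as a block 5 hair follicle genes and 1 mast cell gene passed. For the keratinocyte markers the sums overlapped, at 132 to 1151 in white and 542 to 1344 in black skin, and for mast cells they were 2.77 to 4.39 and 5.40 to 14.0. Of 8 skeletal muscle markers 3 were found, and CKM, the muscle creatine kinase, was higher in white skin, at 46.7 ± 19.1 FPKM (SD, n = 3) against 2.78 ± 1.69 (log2 fold change 3.89, limma adjusted p = 0.0107), whereas ACTA1, skeletal muscle actin, reached at most 1.77 FPKM.

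Which samples were high differed between the 3 genes, and so did the marker lists they ran beside. The comparison used log2(FPKM + 0.5) centred on the mean of each gene over the 6 samples, and the root mean square difference from the mean profile of a list, where 0 is an identical pattern. It counts the size of a change as well as the order of samples, and is a description over 6 points that share pigs and libraries. The pattern of MYRIP was nearest to the endothelial list (0.254), followed by fibroblasts (0.413), mast cells (0.421) and macrophages (0.437), with melanocytes at 0.864. Black skin replicate 1 was the lowest black sample for MYRIP. It was also the lowest for 7 of the 8 endothelial genes, against 45.2% of all mRNAs of at least 1 FPKM. For 8 of the 9 melanocyte genes it was the highest, against 21.9% of those mRNAs.

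LYST differed from the melanocyte list by 0.729 and was nearest to the MiT/TFE factors (0.486), fibroblasts (0.568) and macrophages (0.601). Alone of the 3 genes, LYST had its highest black sample in replicate 1, as did 21.9% of the mRNAs of at least 1 FPKM. That sample was the highest black one for 8 of the 9 melanocyte, all 7 keratinocyte and all 9 hair follicle genes. GPNMB was nearest to the adipocyte list (0.525), then to macrophages (0.865), and stood at 1.02 from melanocytes. Black skin replicate 3 was the highest and replicate 2 the lowest black sample for GPNMB and for all 6 adipocyte genes, and for 11 of the 15 macrophage genes each. Of the mRNAs of at least 1 FPKM, 43.9% were highest in black skin replicate 3 and 32.3% lowest in black skin replicate 2. Between the 3 genes the differences were 0.680 for MYRIP and LYST, 0.988 for LYST and GPNMB and 1.04 for MYRIP and GPNMB.

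**Figure D5:**
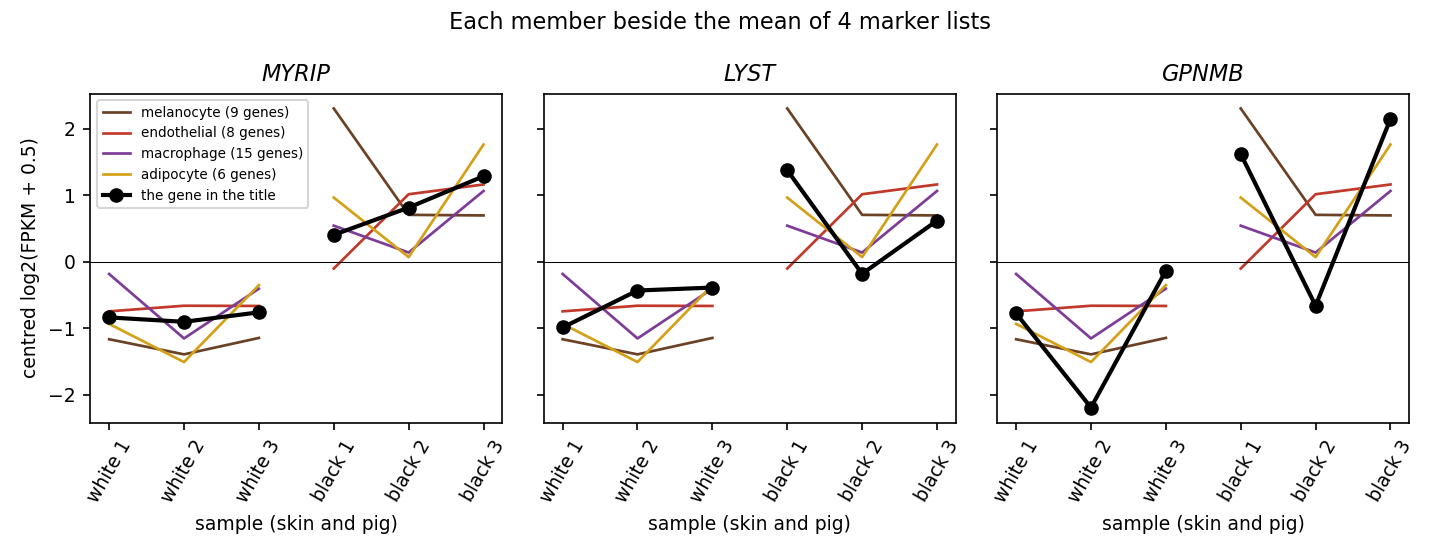
Centred log2(FPKM + 0.5) of MYRIP, LYST and GPNMB (black, with points) in each sample, beside the mean of the melanocyte, endothelial, macrophage and adipocyte markers (colored lines), for 3 white and 3 black skin samples. In black skin MYRIP and the endothelial line are lowest in replicate 1 and highest in replicate 3, and the melanocyte line is highest in replicate 1. GPNMB is high in replicates 1 and 3 and low in replicate 2, like the adipocyte line and, over a smaller range, the macrophage line.

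Of 10851 mRNAs with a symbol and a mean FPKM of at least 1, the closest to MYRIP were EGFLAM (0.0581), MEOX2 (0.0984), PCDH12 (0.113), RSAD2 (0.125) and LARP6 (0.134), where the median over all of them was 0.794. EGFLAM, an extracellular matrix protein, had 1.58, 1.32 and 1.51 FPKM in white and 3.86, 5.44 and 8.24 in black skin replicates 1 to 3, with the same order of black samples as MYRIP. MEOX2, a homeobox factor of mesoderm and vessels, had 1.97, 1.78 and 2.25 and then 4.79, 6.71 and 11.4. PCDH12 is a protocadherin of endothelial cells. Single markers, 1 or 2 per type, were picked from their lists to be ranked. PECAM1 (endothelial) stood at rank 29 (0.184), DCN (fibroblast) at 164 (0.281) and CD68 (macrophage) at 704 (0.4145). ADIPOQ (adipocyte) stood at 3820 (0.698), and the melanocyte markers TYRP1 and PMEL at 10453 (1.615) and 10728 (2.14). The log2 fold change of PMEL was -5.30, against -1.67 for MYRIP, and a difference in size adds to this measure. TYRP1 and PMEL had the lowest log2 fold changes of the melanocyte list, so their ranks do not stand for the whole list. SOX10, of the same list and named after its values were seen, was not ranked. It had 1.29, 1.79 and 2.24 FPKM in black skin replicates 1 to 3, the order of MYRIP.

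The closest to LYST were MICAL2 (0.190), KCNK6 (0.190), NCOA2 (0.191), EMP2 (0.194) and NPC1 (0.232), against a median of 0.799. MICAL2, which oxidizes actin, had 0.713, 1.59 and 2.19 FPKM in white and 7.16, 1.67 and 4.26 in black skin replicates 1 to 3, the same order of black samples as LYST. NPC1 is also one of the lysosome genes called above, and the other 4 were not called. For GPNMB they were HTRA4 (0.217), CYP3A29 (0.251), ADIPOQ (0.441), GP91-PHOX (0.451) and TCIM (0.457), against a median of 1.42. HTRA4, a secreted serine protease, had 6.93, 3.17 and 10.7 FPKM in white and 46.1, 10.4 and 81.0 in black skin replicates 1 to 3, so that pig 2 was lowest and pig 3 highest in both skins, as for GPNMB. ADIPOQ encodes adiponectin, and GP91-PHOX the catalytic subunit of the phagocyte NADPH oxidase.

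Set beside the melanocyte markers, the 3 genes lay within their range, but that range was wide. Its upper end was set by SLC45A2, which was not called (limma adjusted p = 0.455), and the median of all mRNAs was -0.31. How many of all mRNAs lay in the range was not counted, so no likeness to melanocyte markers is read from it. The log2 fold changes of the 9 markers found ran from -5.30 for PMEL to -0.60 for SLC45A2, with SOX10 at -0.89 and a median of -1.97, where SLC45A2 and SOX10 were named after their values were seen. PMEL, with the lowest of them, had 0.252 ± 0.124 FPKM (SD, n = 3) in white and 44.4 ± 50.6 in black samples and passed the 0.5 FPKM threshold in black samples alone. In white skin, where PMEL reached at most 0.391 FPKM, GPNMB was at 10.7 FPKM or more.

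The lncRNAs within 100 kb of the 3 genes were few and low. Of the 7566 lncRNAs of the deposited table, 1 lay within that distance of MYRIP, 4 of LYST and none of GPNMB, and none of the 5 overlapped its gene. None was called, whereas 101 of all lncRNAs (1.33%) passed both thresholds, and none of the 5 had p below 0.05 before adjustment (7.88% of all). The nearest was TCONS_00031960 (chromosome 14, 55427914 to 55428460, plus strand), 4703 bp from LYST. Its FPKM was 0.231, 0.101 and 0.165 in white and 0.354, 1.18 and 0.678 in black skin replicates 1 to 3, so that the skins did not overlap (exact permutation test, p = 0.1). On log2(FPKM + 0.1) the log2 fold change of TCONS_00031960 was -1.56 (SE 0.91, limma adjusted p = 0.691), and its order of black samples was not that of LYST.

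TCONS_00031959, 38461 bp from LYST, had 0.684, 0 and 0.0940 FPKM in white and 1.14, 0.565 and 0.237 in black skin replicates 1 to 3 (log2 fold change -1.40, limma adjusted p = 0.691). TCONS_00035612 was listed above 0 in black skin replicate 1 alone (0.539), and TCONS_00035613 in black skin replicates 1 (0.0397) and 3 (1.03). TCONS_00026524, 68537 bp from MYRIP, was listed at 0 in all samples but black skin replicate 3 (0.707), the sample in which MYRIP was highest. No absence was read from a listed 0.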

How the data were processed

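Poly(A) RNA of 6 skin samples was sequenced with strand-specific libraries as 150-bp paired-end reads. The authors aligned the reads to Sscrofa11.1 (TopHat in the published methods, HISAT2 2.0.4 in the submitters' processing notes) and calculated FPKM with StringTie 1.3.3. The deposited values are FPKM and hold no counts. How many reads support a given FPKM cannot be read from them, and counting error was not estimated. Over the mRNAs of a sample, FPKM added up to between 408598 and 501424. The authors kept mRNAs above 0.5 FPKM and lncRNAs above 0.1 FPKM in at least 1 sample. All 6 columns were used, and samples were grouped by the skin named in their titles.

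Skins were compared with limma 3.58.1 (trend option, R 4.3.3) on log2(FPKM + 0.5) over all mRNAs and on log2(FPKM + 0.1) over all lncRNAs, with Benjamini-Hochberg adjustment over each table, thresholds as in the published methods and no term for the pig. The method was tested on simulated data. Alternatives were other pseudocounts, upper-quartile scaling, quantile normalization, no trend, a mean FPKM of at least 1 (0.1 for lncRNAs), leaving out each sample, and the pig as a block. The labels give both skins of a pig the same number, and deviations from the skin means correlated across mRNAs with r of 0.208, 0.360 and 0.204 within pigs 1 to 3, against mean values of -0.126, -0.168 and -0.0961 with other pigs. The deviations of a skin add up to 0, so positive values within pigs make those with other pigs negative. The negative values are no separate evidence of pairing. Single values were compared with exact permutation tests, two-sided (Python 3.11.15, SciPy 1.17.1).

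Symbols were found for 12419 of 14900 identifiers (83.3%), 12236 in a table of Ensembl names and 183 in the supplement of the paper. Positions are those of RefSeq on Sscrofa11.1. Besides the 3 genes, the genes named are the partners RAB27A, MLPH, MYO5A and MYO7A and the MiT/TFE factors, up to 5 genes of each list past both thresholds with the largest change, or, where fewer than 2 passed, also the 3 with the highest mean FPKM, the lncRNAs within 100 kb, and the 5 mRNAs of most similar pattern per gene. Others are said to be chosen after their values were seen. The 3 genes and the lists were chosen with earlier results of these data known.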

Additional observations from a re-analysis of the deposited data

How the results depend on the processing

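All 13 alternatives kept the log2 fold changes of MYRIP, LYST and GPNMB below 0. MYRIP passed both thresholds in the 7 that used all samples (log2 fold change -2.55 to -1.20), and when single libraries were left out it ranged from -1.89 to -1.44, with a limma adjusted p of 0.0301 to 0.117. LYST ranged from -1.60 to -0.82 and GPNMB from -2.92 to -1.49 over all alternatives. With the pig as a block (pairing by pig), GPNMB passed (-2.07, adjusted p = 0.0145 from limma), as did MITF and CTSS, and the calls of MYRIP, LYST and the other genes of the 5 pathway lists stayed as they were. The mRNAs past both thresholds numbered 930, 1439 with the block (66.5% of them lower in white skin) and 35 to 847 without single libraries, the fewest without white skin replicate 2. The lncRNAs numbered 101, 243 with the block, 19 with a pseudocount of 1, 12 without the trend and 0 to 5 without single libraries. Without single libraries the called genes numbered 0 to 2 for melanosome transport (2 with all samples) and 0 to 2 for lysosomes (3 with all samples). Upper-quartile scaling gave 2 organelle biogenesis genes instead of 1. The difference in the ratio of MYRIP to GPNMB (0.40) was -0.46 with a pseudocount of 0.1 and -0.14 to 1.24 without single libraries, negative without white skin replicate 2 (-0.14) or black skin replicate 1 (-0.11). The causes of these changes were not tested. Since reads per FPKM are not given, what depth limits was not assessed.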
